A study of Catharanthus roseus with 15 samples.

Results

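The leaf transcriptome of Catharanthus roseus was compared between ethephon (ETH) and methyl jasmonate (MJ) one day after spraying. The comparison rests on 6 of the 15 RNA-seq libraries of the series, 3 of ETH 24 h and 3 of MJ 24 h, chosen by the hormone, time and number in their labels and by no measured value. It asks which differences between the hormones were present at 24 h when the sampling time was held equal. All plants were of the cultivar Vitae Rose Red, and all libraries were from leaf. ETH 24 h seedlings were sprayed with 100 µM ethephon, a compound that releases ethylene inside the plant, and MJ 24 h seedlings with 100 µM methyl jasmonate, the volatile ester of jasmonic acid. ETH 3 h, MJ 3 h and untreated 0 h leaves, also 3 libraries each, were used beside them. The labels give the seedlings as 2-week-old and the methods as 4-week-old. No leaf sprayed with water and sampled at 24 h was analysed here, so spraying and time of day are shared by both hormone groups but not by 0 h. The sources do not say how many plants made up a library, and p-values therefore measure the spread between these libraries only.

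Ethylene is perceived at the endoplasmic reticulum by receptors of the ETR1 and EIN4 type. Without ethylene, the receptors keep the kinase CTR1 active, and CTR1 holds the membrane protein EIN2 in check. With ethylene, a part of EIN2 is released and the transcription factors EIN3 and EIL1 accumulate, which otherwise are degraded through the F-box proteins EBF1 and EBF2. EIN3 and EIL1 switch on many genes, among them ERF transcription factors and, as negative feedback, EBF2 and some receptors. Jasmonate acts through another route, in which JAZ repressors are degraded and MYC factors are freed. In C. roseus both hormones are used to raise monoterpenoid indole alkaloids, the family that contains catharanthine, vindoline and their coupled product anhydrovinblastine. These roles, unless stated otherwise, are known mainly from Arabidopsis, and C. roseus genes carry the names given to them in the study.

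The total count was 23710688 to 28238451 in ETH 24 h libraries and 27659901 to 29284788 in MJ 24 h libraries. Of 33829 genes in the count table, 18008 had enough counts to be tested. Levels are given as CPM, counts scaled to library size with TMM factors, and are compared between libraries and not between genes. On the log2(CPM + 1) scale, libraries of one group correlated at 0.985 to 0.988 across genes in ETH 24 h and at 0.958 to 0.982 in MJ 24 h, and the values of pairs across the groups ran from 0.950 to 0.970. MJ 24 h replicate 3 correlated at 0.970 with ETH 24 h replicate 2, at 0.952 and 0.950 with the other ETH 24 h libraries, and at 0.958 and 0.969 with the other MJ 24 h libraries. The median standard deviation of a gene was 0.127 log2 units in ETH 24 h and 0.200 in MJ 24 h, and 72.1% of genes had the larger one in MJ 24 h. All 6 markers of leaf photosynthesis were tested and none was called. Their summed level ran from 2897 to 3743 CPM in ETH 24 h and from 3307 to 6105 CPM in MJ 24 h. The markers of young or dividing tissue (8 of 9 tested, 0 called) summed to 13.43 to 18.02 CPM in ETH 24 h and 9.16 to 13.21 CPM in MJ 24 h. These sums did not overlap, but only through SPCH, whose values are given below, and without SPCH the groups overlap. The part of these markers in the results was not tested. Those of pollen, seed, embryo or root (6 of 9 tested, 0 called) summed to 142 to 162 CPM in ETH 24 h and 165 to 196 CPM in MJ 24 h, again without overlap, most of it from ACA9. Without ACA9 the sums were 27.97 to 31.01 CPM in ETH 24 h and 27.41 to 30.58 CPM in MJ 24 h, and AGL80, WOX2 and 1 oleosin had too few counts to be tested.

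At 24 h, 187 genes differed between the hormones, 108 of them higher and 79 lower in ETH 24 h than in MJ 24 h (edgeR quasi-likelihood test with an adjusted p under 0.05, and more than 1.5-fold apart). These are 1.04% of the genes tested, 0.6% higher and 0.439% lower. The 187 genes had no overlap between the 3 ETH 24 h and the 3 MJ 24 h values, but so did 28.6% of all genes tested, and an unadjusted p under 0.05 was reached by 2673 genes. The median size of the change was 1.41 log2 units for the higher genes and 1.54 for the lower ones, and 37 higher and 25 lower genes differed by more than 4-fold. The higher genes had a median level of 42.06 CPM in ETH 24 h and 17.02 CPM in MJ 24 h, the lower genes one of 11.9 CPM in ETH 24 h and 36.1 CPM in MJ 24 h. Only 8 of the 187 have a name or an Arabidopsis match in the tables used here, 7 higher and 1 lower. The number of calls was not stable: leaving out any one of the 6 libraries except MJ 24 h replicate 3 left 20 to 59 genes, and leaving out MJ 24 h replicate 3 gave 198 (71 higher, 127 lower). DESeq2 called 803 genes and limma voom 1654, with 349 and 675 of these higher.

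Of the 10 ethylene signalling genes, 9 were tested and 3 were called, all higher in ETH 24 h, beside 0.6% of all genes tested. The 3 called genes were CrEBF2, CrEIN4 and CrMKK9, and the other 6 had log2 fold changes of 0.06 to 0.36. The list median was 0.18, against 0.00 over all genes tested. The list was drawn from networks that the study built on these libraries, so its direction is not independent evidence.

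CrEBF2 (CRO_005880) encodes the F-box protein that marks EIN3 for degradation. It stood at 3975, 4209 and 4397 CPM in ETH 24 h leaves, against 759, 899 and 1679 CPM in MJ 24 h leaves. All ETH 24 h libraries were above all MJ 24 h libraries, and MJ 24 h replicate 3 was well above the other MJ 24 h libraries. The log2 fold change was 1.91 ± 0.33 (SE, adjusted p = 0.0213). CrEIN4 (CRO_020097), an ethylene receptor, had 36.0, 37.2 and 33.1 CPM in ETH 24 h, against 15.13, 15.95 and 19.86 CPM in MJ 24 h. The groups were far apart compared with their spread, with a log2 fold change of 1.06 ± 0.17 (adjusted p = 0.0131). CrMKK9 (CRO_011505), a MAP kinase kinase placed in ethylene signalling, had 340, 383 and 394 CPM in ETH 24 h, against 146, 169 and 188 CPM in MJ 24 h. Its lowest ETH 24 h library was well above its highest MJ 24 h library, and the log2 fold change was 1.15 ± 0.21 (adjusted p = 0.0261). With 1 library left out, the adjusted p of these 3 genes ran from 0.0103 to 0.114, and each kept its call only without MJ 24 h replicate 3, at 0.0103 for CrEBF2, 0.0230 for CrEIN4 and 0.0385 for CrMKK9.

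The core of the pathway between receptor and transcription factor showed small differences. CrCTR1, the kinase downstream of the receptors, had 87.0, 97.2 and 92.4 CPM in ETH 24 h and 65.7, 72.3 and 78.1 CPM in MJ 24 h. These values did not overlap, but the log2 fold change of 0.36 ± 0.11 was under the fold threshold and did not pass the test (adjusted p = 0.166). CrETR1, another receptor, averaged 23.2 ± 0.349 CPM in ETH 24 h and 21.1 ± 2.93 CPM in MJ 24 h (SD, n = 3 each), with a log2 fold change of 0.14 (edgeR adjusted p = 0.603). CrEIN3 averaged 769 ± 32.1 CPM in ETH 24 h and 737 ± 110 CPM in MJ 24 h, a difference well within the MJ 24 h spread (log2 fold change 0.06, edgeR adjusted p = 0.895). Of the 2 CrEIN2 genes, CRO_006809 had a log2 fold change of 0.08 and CRO_030101 one of 0.07, and CrEER4 one of 0.18. Both genes carry the same name, and whether reads were split between them was not tested. CrEIL1 had 0 counts in all 6 libraries, and no difference could be measured at this depth.

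**Figure D1:**
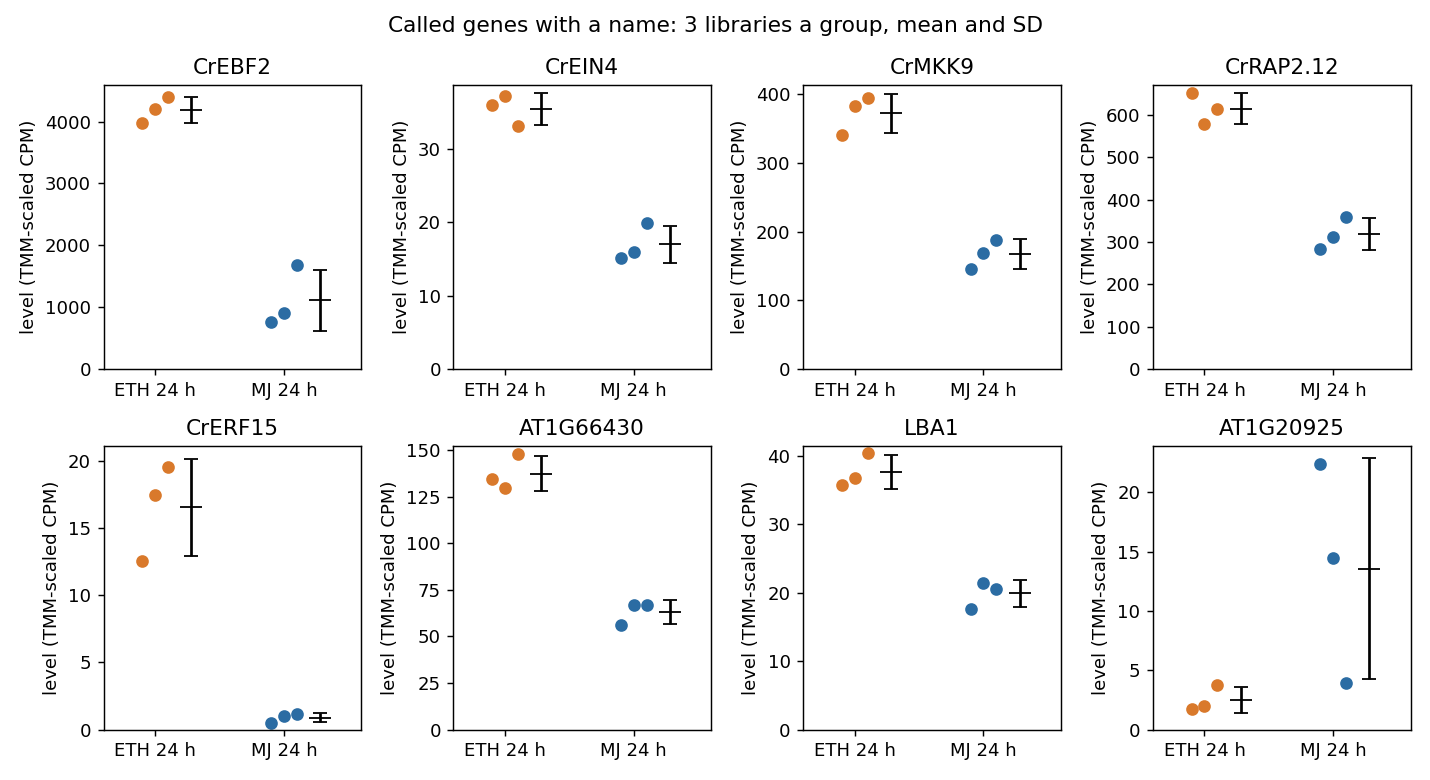
Level of the 8 named genes that differed between the hormones at 24 h, in TMM-scaled CPM on axes that start at 0. Points are single libraries (orange ETH 24 h, blue MJ 24 h), and bars give the mean and SD of 3. In CrEBF2 the ETH 24 h libraries lie at 3975 to 4397 CPM and the MJ 24 h libraries at 759 to 1679 CPM, and AT1G20925 is the one gene that is lower in ETH 24 h.

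ERF factors carry the ethylene signal to target genes. Of the 4 ERF and RAV factors, all were tested and 2 were called, both higher in ETH 24 h, beside 0.6% of all genes tested. The list median was 0.67. These factors were also drawn from networks that the study built on these libraries, so their direction is not independent evidence. CrRAP2.12 (CRO_001062) belongs to the ERF group that senses oxygen in Arabidopsis. It had 652, 579 and 613 CPM in ETH 24 h, against 284, 312 and 358 CPM in MJ 24 h, again with all ETH 24 h libraries higher. The log2 fold change was 0.95 ± 0.15 (adjusted p = 0.0130). CrERF15 (CRO_019273) had the largest difference among the 8 named genes that were called. It stood at 12.6, 17.5 and 19.6 CPM in ETH 24 h, against 0.491, 1.03 and 1.17 CPM in MJ 24 h. The log2 fold change was 4.20 ± 0.81 (adjusted p = 0.0349). Without 1 library the adjusted p of CrRAP2.12 ran from 0.0212 to 0.0837 and passed in 2 fits, the one lacking ETH 24 h replicate 2 (0.0358) and the one lacking MJ 24 h replicate 3 (0.0212), while that of CrERF15 ran from 0.0635 to 0.153 and passed in none of these fits. CrERF13 had 119, 125 and 117 CPM in ETH 24 h and 93.0, 90.9 and 107 CPM in MJ 24 h (log2 fold change 0.31 ± 0.29, adjusted p = 0.702). CrRAV1 had 529, 502 and 488 CPM in ETH 24 h and 301, 357 and 499 CPM in MJ 24 h, where replicate 3 reached the ETH 24 h range (log2 fold change 0.39 ± 0.28, adjusted p = 0.589).

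The other transcription factors came from 3 co-expression modules that the study named by colour. The study chose these modules on the same libraries, so the direction of their factors is not independent evidence. None of the 26 other green, 12 other pink and 37 tested turquoise factors was called by edgeR, and an unadjusted p under 0.05 was reached by 9 green, 4 pink and 2 turquoise factors. The list medians were 0.25, 0.24 and 0.27 log2 units in that order, and 23 green and 11 pink factors had a positive value. The groups did not overlap for 10 green and 5 pink factors, each of them higher in ETH 24 h, and for 14 turquoise factors, 12 of them higher, beside 28.6% of all genes tested.

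CrHB1 (CRO_026277), a homeobox factor, had 169, 147 and 163 CPM in ETH 24 h, against 22.3, 41.5 and 72.2 CPM in MJ 24 h. Its log2 fold change of 1.81 ± 0.39 missed the threshold narrowly (adjusted p = 0.0514), and it passed without MJ 24 h replicate 3 (0.0236). CrNAC6 (CRO_025185), a NAC factor, had 20.1, 28.1 and 31.3 CPM in ETH 24 h and 0.453, 4.19 and 8.25 CPM in MJ 24 h (log2 fold change 2.62 ± 0.75, adjusted p = 0.124). The MJ 24 h libraries of both genes were spread more than 3-fold, and their ETH 24 h libraries less than 2-fold. CrbHLH130 had 379, 411 and 432 CPM in ETH 24 h and 141, 177 and 239 CPM in MJ 24 h (log2 fold change 1.13 ± 0.30, adjusted p = 0.0934). CrbHLH128 had 85.6, 101 and 103 CPM in ETH 24 h and 42.3, 45.1 and 66.7 CPM in MJ 24 h (log2 fold change 0.91 ± 0.26, adjusted p = 0.128). CrWRKY53 averaged 74.6 ± 2.64 CPM in ETH 24 h and 43.1 ± 11.8 CPM in MJ 24 h (SD, n = 3 each; log2 fold change 0.79, edgeR adjusted p = 0.280). In each of these genes the highest MJ 24 h library was below the lowest ETH 24 h library.

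Among the turquoise factors, SPCH (CRO_010214), which starts the stomatal lineage in the young epidermis, had the widest ratio. It was at 3.46, 1.32 and 3.40 CPM in ETH 24 h and at 0.0377, 0 and 0 CPM in MJ 24 h. The gene did not pass (adjusted p = 0.227), and at 3 h its libraries ran from 0.200 to 21.1 CPM in ETH 3 h and from 0 to 19.2 CPM in MJ 3 h. SPCH is itself one of the markers of young tissue, and without it their summed levels overlap between the groups. The part of tissue makeup in the SPCH value was not tested. In bulk leaf RNA, fewer cells of a type and less RNA per cell cannot be told apart.

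The 4 genes listed for the catharanthine branch, GO, CS, TS and PRX1, were all measured, and none was called. SAT, PAS and DPAS, which the study places with them among genes induced mainly by ETH, are not on the list. GO (CRO_002621), geissoschizine oxidase, had 21.4, 21.4 and 20.9 CPM in ETH 24 h, against 4.64, 10.3 and 13.3 CPM in MJ 24 h (log2 fold change 1.17 ± 0.32, adjusted p = 0.107). CS, catharanthine synthase, was at 0.941, 0.913 and 0.647 CPM in ETH 24 h and at 0.226, 0.404 and 0.438 CPM in MJ 24 h (log2 fold change 1.22 ± 0.53, adjusted p = 0.312). Both genes were higher in every ETH 24 h library than in any MJ 24 h library, without passing the test over all genes. Of the 4 listed genes 3 had no overlap between the groups, beside 28.6% of all genes tested. CS was under 1 CPM in every library of both groups, a level near the floor. TS, tabersonine synthase, averaged 1067 ± 74.4 CPM in ETH 24 h and 845 ± 196 CPM in MJ 24 h (SD, n = 3 each; log2 fold change 0.34, edgeR adjusted p = 0.768). PRX1, the peroxidase that couples catharanthine and vindoline, averaged 489 ± 37.2 CPM in ETH 24 h and 346 ± 91.9 CPM in MJ 24 h (log2 fold change 0.50, edgeR adjusted p = 0.569). The list median of 0.84 was above that of all genes tested (0.00), and the study selected these 4 genes on the same libraries. Since the list also holds tabersonine synthase and the coupling peroxidase, its median is not one of catharanthine synthesis alone.

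Of the 11 other alkaloid genes tested, none was called and 0 had an unadjusted p under 0.05 in edgeR. Their log2 fold changes ran from -0.68 to 1.43 around a median of 0.37. D4H, the hydroxylase of a late vindoline step, had the lowest value, with 118, 89.1 and 114 CPM in ETH 24 h and 168, 190 and 156 CPM in MJ 24 h (log2 fold change -0.68 ± 0.50, adjusted p = 0.594). Heteroyohimbine synthase (HYS), an enzyme of the ajmalicine branch, averaged 4.55 ± 0.971 CPM in ETH 24 h and 1.76 ± 0.612 CPM in MJ 24 h (SD, n = 3 each; log2 fold change 1.37, edgeR adjusted p = 0.440). T3R, a reductase of the vindoline route, averaged 369 ± 52.3 CPM in ETH 24 h and 204 ± 65.0 CPM in MJ 24 h (log2 fold change 0.85, edgeR adjusted p = 0.522). NMT, an N-methyltransferase, had 73.9, 51.7 and 75.8 CPM in ETH 24 h and 64.4, 82.8 and 8.10 CPM in MJ 24 h. Its log2 fold change of 0.37 turned to -0.16 without MJ 24 h replicate 3, the library at 8.10 CPM.

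Of 5 genes of jasmonate synthesis and signalling 4 were tested. At 24 h, 0 were called and 2 had no overlap between the groups, both lower in ETH 24 h, beside 28.6% of all genes tested without overlap. At 3 h, 3 of the 4 were called lower in ETH 3 h than in MJ 3 h, beside 3.57% of all genes tested. The list was chosen with earlier results of these data known, so this count is not independent evidence. One of the 4, MYC3, was near 0 in both groups at 24 h. With 1.04% of all genes called at 24 h, a count of 0 in a list of this size says little about the list. LOX2, the lipoxygenase of the first step, had 239, 188 and 138 CPM in ETH 24 h and 44.2, 179 and 108 CPM in MJ 24 h (log2 fold change 0.77 ± 0.73, adjusted p = 0.700). At 3 h it averaged 112 ± 78.4 CPM in ETH 3 h and 2853 ± 1236 CPM in MJ 3 h (SD, n = 3 each; log2 fold change -4.67, edgeR adjusted p = 0.00498). FAD7, a chloroplast desaturase that makes the fatty acid precursor, had 20.5, 32.1 and 43.8 CPM in ETH 24 h and 70.0, 66.0 and 54.0 CPM in MJ 24 h. These did not overlap, but the log2 fold change of -0.98 ± 0.56 did not pass (adjusted p = 0.456). MYC3, a jasmonate transcription factor, averaged 0.0854 CPM in ETH 3 h and 73.3 CPM in MJ 3 h, and at 24 h was at 0.151, 0 and 0 CPM in ETH 24 h and at 0 in all MJ 24 h libraries. The lipase gene PLA-Ibeta2 (CRO_000862) averaged 1.37 ± 0.0451 CPM in ETH 24 h and 3.12 ± 1.51 CPM in MJ 24 h (log2 fold change -1.19, edgeR adjusted p = 0.209).

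The remaining 3 named genes that were called lie outside these pathways and are known only by their Arabidopsis match. AT1G66430 (CRO_000061, a carbohydrate kinase of the pfkB family) had 134, 130 and 148 CPM in ETH 24 h, against 55.9, 67.0 and 66.9 CPM in MJ 24 h. Its log2 fold change of 1.12 ± 0.13 had the smallest adjusted p of the 8 (0.00320), and it kept its call with any one library left out (0.0105 to 0.0285). LBA1 (CRO_000406), an RNA helicase whose Arabidopsis match acts in nonsense-mediated mRNA decay, had 35.7, 36.8 and 40.3 CPM in ETH 24 h, against 17.7, 21.4 and 20.6 CPM in MJ 24 h. The log2 fold change was 0.92 ± 0.15 (adjusted p = 0.0135), and with 1 library left out it passed only without MJ 24 h replicate 3 (0.0413; up to 0.113 in the other fits). AT1G20925 (CRO_000328, a member of the auxin efflux carrier family) was lower, with 1.77, 2.03 and 3.76 CPM in ETH 24 h, against 22.4, 14.4 and 3.91 CPM in MJ 24 h. MJ 24 h replicate 3 lay next to the ETH 24 h range. The log2 fold change was -2.43 ± 0.49 (adjusted p = 0.0379), -2.90 without MJ 24 h replicate 3 (adjusted p = 0.00265), and no other library could be left out without losing the call (up to 0.156).

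**Figure D2:**
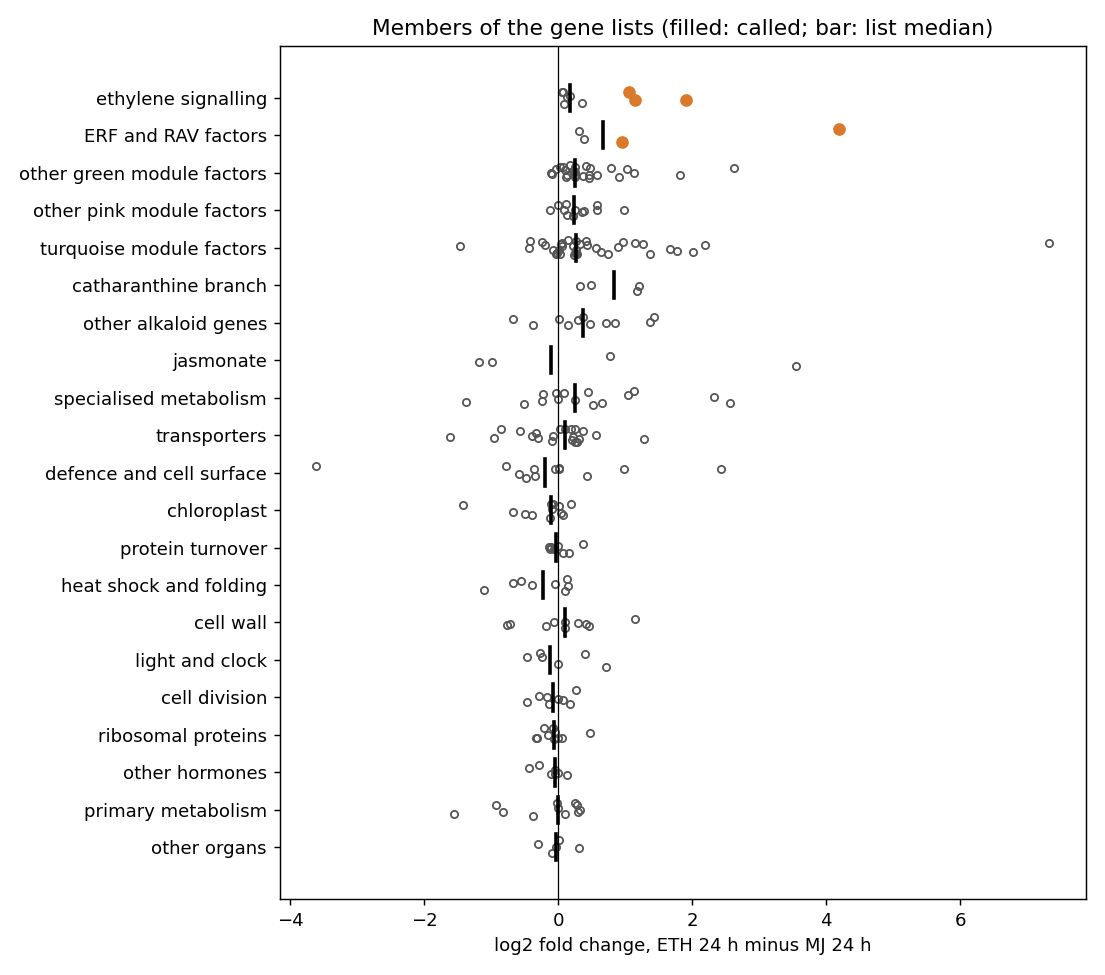
Log2 fold change, ETH 24 h minus MJ 24 h, of each tested member of the 21 gene lists. Filled orange points are called genes, open points are other members, and black bars are list medians. The 5 called members all lie right of 0, in ethylene signalling (3) and in ERF and RAV factors (2).

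Over all 21 lists, 240 of 278 members were tested, 5 were called higher and 0 lower in ETH 24 h, beside 0.6% and 0.439% of all genes tested. At an unadjusted p under 0.05 there were 40, beside 2673 of the 18008 genes tested, and DESeq2 called 18 members, beside 803 genes in all. The 5 called members are those of ethylene signalling and the ERF and RAV factors given above. The lists of specialised metabolism, transporters, defence and cell surface, chloroplast, protein turnover, heat shock and folding, cell wall, light and clock, cell division, ribosomal proteins, other hormones, primary metabolism and other organs had 0 members called in edgeR, and their medians lay between -0.22 and 0.25. Some of their members had wide differences that did not pass. AT4G20820 (CRO_000174, an oxidase of the berberine bridge family) had 1417, 1218 and 1252 CPM in ETH 24 h and 201, 181 and 390 CPM in MJ 24 h (log2 fold change 2.33 ± 0.55, adjusted p = 0.0670). CYP71B10, a cytochrome P450, had 2.86, 2.87 and 1.54 CPM in ETH 24 h and 0.264, 0.478 and 0.475 CPM in MJ 24 h (log2 fold change 2.57 ± 0.65, adjusted p = 0.0836). In both genes the lowest ETH 24 h library was over 3 times the highest MJ 24 h library.

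On the other side, CH1, an oxygenase that makes chlorophyll b, had 127, 93.5 and 72.6 CPM in ETH 24 h and 246, 340 and 193 CPM in MJ 24 h (log2 fold change -1.41 ± 0.41, adjusted p = 0.124). HSP70, a chaperone, had 149, 134 and 152 CPM in ETH 24 h and 364, 245 and 321 CPM in MJ 24 h (log2 fold change -1.10 ± 0.55, adjusted p = 0.395). NRT1:2, a nitrate transporter, had 1.88, 2.06 and 4.04 CPM in ETH 24 h and 8.94, 7.09 and 8.32 CPM in MJ 24 h (log2 fold change -1.61 ± 0.44, adjusted p = 0.110). The groups did not overlap in these 3 genes, which are shown for their wide differences, beside 28.6% of all genes tested without overlap. None of the 3 passed. CH1 is one of the leaf photosynthesis markers given above, whose summed level overlapped between the groups.

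Most genes that were called have no name in the tables used here, and the 2 largest rises and the 2 largest falls with a mean above 1 CPM over the 6 libraries are given by ID. CRO_026081 had 10.01, 5.11 and 5.70 CPM in ETH 24 h (558 counts in all), against 0.0755, 0.0735 and 0 CPM in MJ 24 h (4 counts). The fitted log2 fold change of 7.0 ± 1.2 (adjusted p = 0.0254) rests on those 4 counts. CRO_017678 had 37.3, 22.6 and 40.4 CPM in ETH 24 h, against 0.226, 0.331 and 0.402 CPM in MJ 24 h (26 counts). Its log2 fold change was 6.68 ± 0.75 (adjusted p = 0.00213). CRO_020790 had 0.602, 0.643 and 0.162 CPM in ETH 24 h (39 counts), against 48.0, 31.8 and 38.6 CPM in MJ 24 h. Its log2 fold change of -6.36 ± 0.60 had an adjusted p of 0.00119, and its 0 h mean of 4.21 CPM lay between the hormone groups. CRO_020365 had 1.62, 0.406 and 0.404 CPM in ETH 24 h, against 18.3, 38.9 and 5.04 CPM in MJ 24 h (log2 fold change -4.67 ± 0.85, adjusted p = 0.0266). CRO_017678 and CRO_020790 kept their calls with any one library left out. CRO_026081 lost its call in each such fit (adjusted p 0.0554 to 0.114), and CRO_020365 kept it only without MJ 24 h replicate 3 (0.0141; up to 0.144 in the others).

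Levels in 0 h leaves show on which side each hormone group stood. The 0 h libraries were not in the contrast itself, but they entered the filter, the scaling and the estimate of spread, and the fit to the 6 hormone libraries alone called 552 genes. The 108 genes higher in ETH 24 h had a median log2 fold change of 1.49 in ETH 24 h against 0 h (quartiles 0.87 and 2.33) and of -0.09 in MJ 24 h against 0 h (quartiles -0.38 and 0.22). For 101 of them the 0 h level was nearer to MJ 24 h than to ETH 24 h. The 79 lower genes had a median of -1.02 in ETH 24 h against 0 h (quartiles -1.89 and -0.49) and of 0.41 in MJ 24 h against 0 h (quartiles 0.00 and 0.89), and the 0 h level was nearer to MJ 24 h for 52 and nearer to ETH 24 h for 27. Over all genes tested, 9731 of 18008 were nearer to MJ 24 h. The comparisons with 0 h share the hormone libraries with the comparison of the hormones and the 0 h libraries with each other, so they are given side by side only. CrEBF2 was 3.54 log2 units above 0 h in ETH 24 h and 1.62 in MJ 24 h, and CrEIN4 1.20 in ETH 24 h and 0.13 in MJ 24 h. CrRAP2.12 was 1.44 above 0 h in ETH 24 h and 0.49 in MJ 24 h. AT1G20925 had a log2 fold change against 0 h of -3.83 in ETH 24 h and of -1.40 in MJ 24 h.

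**Figure D3:**
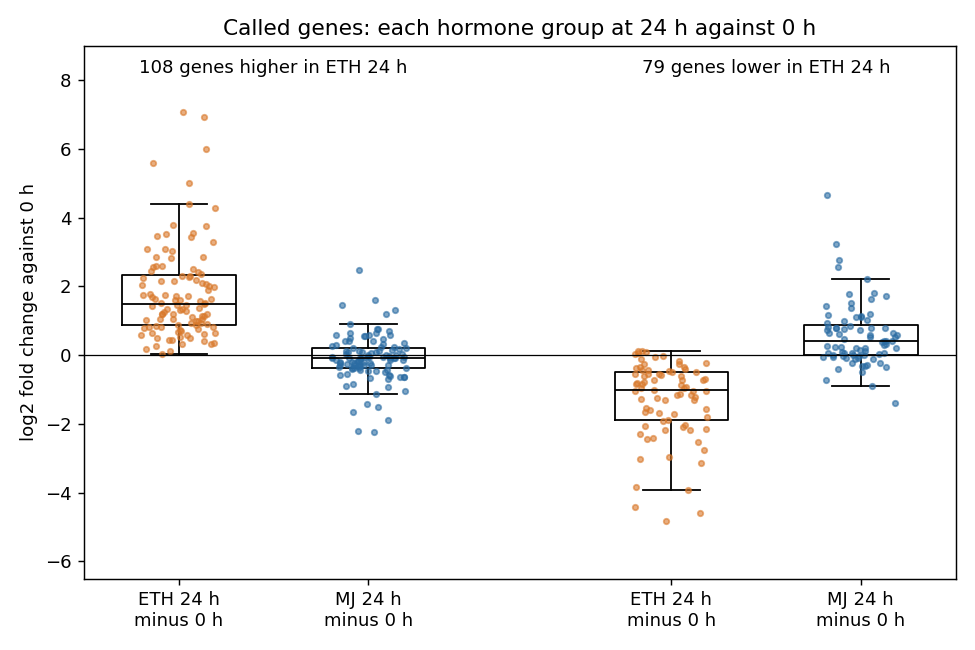
Log2 fold change against 0 h of the 108 genes higher and the 79 genes lower in ETH 24 h than in MJ 24 h, for ETH 24 h (orange) and MJ 24 h (blue). Each point is a gene, boxes show median and quartiles, and whiskers reach the last point within 1.5 times the box. The ETH 24 h median is 1.49 for the higher genes and -1.02 for the lower ones, and the MJ 24 h medians are -0.09 and 0.41.

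The comparison of ETH 3 h with MJ 3 h uses 6 other libraries and shows whether a difference at 24 h had been present earlier. Both comparisons came from the same fit, in which all groups share the estimate of spread of a gene. A gene with a small spread is therefore more easily called at both times, which can raise the shares called at 3 h. At 3 h, 1241 genes were called (6.89% of those tested, 3.33% higher and 3.57% lower in ETH 3 h). Of the 108 genes higher in ETH 24 h, 90 had a positive value at 3 h (83.3%) and 47 were called higher in ETH 3 h (43.5%). Among the 9027 genes with a positive value at 24 h, these shares were 51.3% and 4.07%. Of the 79 genes lower in ETH 24 h, 42 had a negative value at 3 h (53.2%) and 14 were called lower in ETH 3 h (17.7%), against 55.0% and 3.98% of the 8974 genes with a negative value at 24 h. A further 8 of the 79 were called higher in ETH 3 h, and 2 of the 108 were called lower. The median log2 fold change at 3 h was 0.75 for the higher and -0.07 for the lower genes. The share with the same sign was not tested, since genes are not independent replicates, and it rests on a set of called genes that shrank to between 20 and 59 with most libraries left out. Without ETH 24 h replicate 3, the smallest set, 14 of 16 higher and 1 of 4 lower genes had the same sign at 3 h, and without MJ 24 h replicate 3 the counts were 58 of 71 and 77 of 127.

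**Figure D4:**
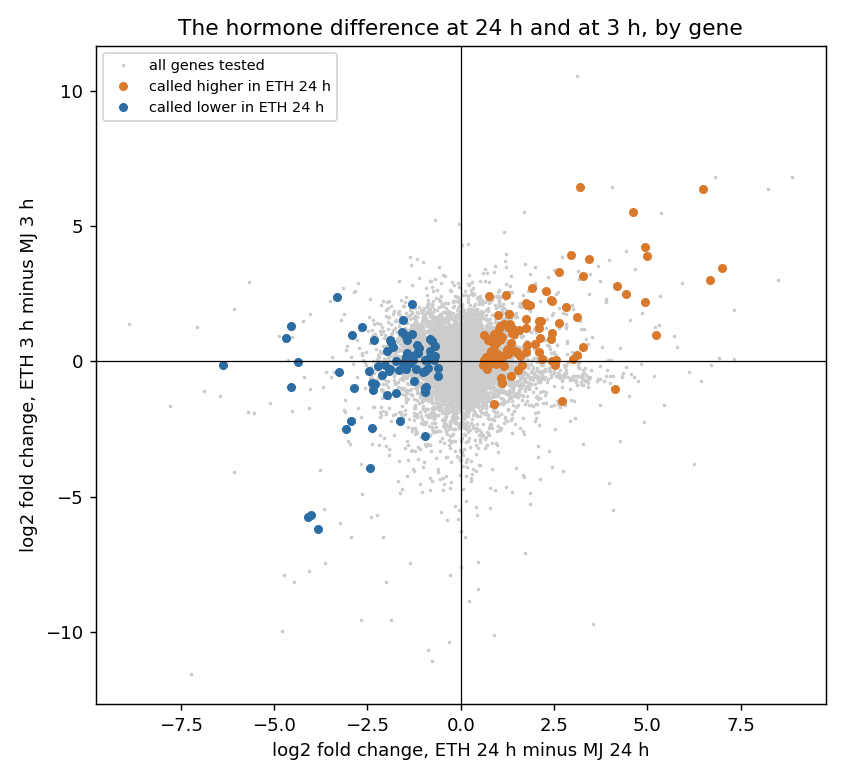
Log2 fold change between the hormones at 24 h (horizontal, ETH 24 h minus MJ 24 h) and at 3 h (vertical, ETH 3 h minus MJ 3 h). Grey points are all 18008 genes tested, orange the 108 genes called higher and blue the 79 called lower in ETH 24 h. Of the orange points 90 lie above 0 at 3 h, and of the blue points 42 lie below.

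The 5 called ethylene pathway genes were all called higher at 3 h as well, beside 3.33% of all genes tested. They were drawn from networks that the study built on libraries of both times, so this is not independent evidence. CrEBF2 had 3929, 4111 and 4130 CPM in ETH 3 h, against 474, 884 and 480 CPM in MJ 3 h (log2 fold change 2.73 ± 0.34, adjusted p = 0.000494). CrEIN4 averaged 34.7 ± 2.10 CPM in ETH 3 h and 14.2 ± 3.52 CPM in MJ 3 h (SD, n = 3 each; log2 fold change 1.29, edgeR adjusted p = 0.000732). CrMKK9 averaged 436 ± 10.2 CPM in ETH 3 h and 167 ± 47.2 CPM in MJ 3 h (log2 fold change 1.38, edgeR adjusted p = 0.00170). In these 3 genes the mean of ETH 24 h lay within 1.2 times that of ETH 3 h. CrRAP2.12 averaged 743 ± 56.8 CPM in ETH 3 h and 460 ± 56.6 CPM in MJ 3 h (log2 fold change 0.69, edgeR adjusted p = 0.0138). CrERF15 averaged 32.2 ± 8.95 CPM in ETH 3 h and 4.70 ± 2.54 CPM in MJ 3 h (log2 fold change 2.77, edgeR adjusted p = 0.0380), and in 0 h it was at 1.35, 7.90 and 0.674 CPM. For the 5 genes the change of the hormone difference between 3 h and 24 h did not pass a test of its own (edgeR adjusted p 0.404 to 0.773).

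Over all genes tested, the change of the hormone difference between the times passed for 595 genes (3.3%, with 1.79% more positive and 1.52% more negative at 24 h). CrRAV1 and CrERF13 had a difference at 3 h that was not called at 24 h. CrRAV1 averaged 696 ± 39.4 CPM in ETH 3 h and 227 ± 82.3 CPM in MJ 3 h (SD, n = 3 each; log2 fold change 1.62, edgeR adjusted p = 0.00498). CrERF13 averaged 344 ± 49.4 CPM in ETH 3 h and 121 ± 44.6 CPM in MJ 3 h (log2 fold change 1.503, edgeR adjusted p = 0.00915). The change between the times was -1.23 log2 units for CrRAV1 (edgeR adjusted p = 0.133) and -1.19 for CrERF13 (edgeR adjusted p = 0.159), so the 24 h difference was not shown to be smaller. LBA1, which was named because it was called at 24 h, averaged 24.8 ± 4.69 CPM in ETH 3 h and 25.7 ± 3.85 CPM in MJ 3 h (log2 fold change -0.05, edgeR adjusted p = 0.890), and here the change between the times passed (0.97 log2 units, edgeR adjusted p = 0.0272).

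**Figure D5:**
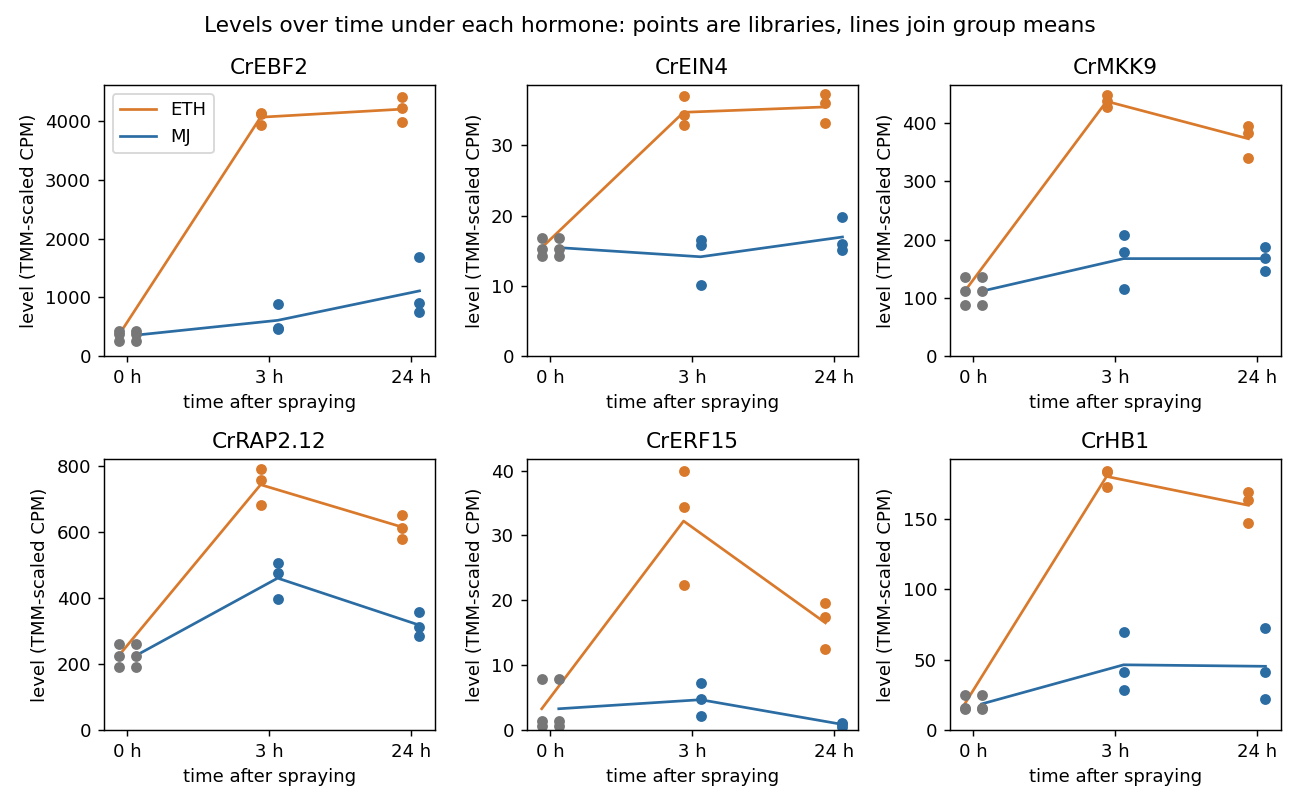
Levels of the 5 called ethylene pathway genes and of CrHB1 over the time course under ETH (orange) and MJ (blue), in TMM-scaled CPM on axes that start at 0. Points are single libraries, lines join group means, and the grey 0 h libraries are drawn for both hormones. CrEBF2 averages 4056 CPM in ETH 3 h and 4193 CPM in ETH 24 h, while MJ 3 h averages 613 CPM and MJ 24 h 1112 CPM.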

How the data were processed

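Leaf RNA was sequenced in 15 libraries of 5 groups (0 h, ETH 3 h, ETH 24 h, MJ 3 h, MJ 24 h), assigned from the labels. The labels' extraction text names an animal brain region and was taken as left over from another study. The authors aligned the reads with HISAT2 (the submitters' processing notes name version 2.0.4) and deposited raw HTSeq counts per gene. Which of the 2 genome sources named in the methods was used, and HTSeq's strand setting, are left unstated there and in the labels, so antisense genes cannot be told apart. The table had 0 columns of unknown samples.

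The test was the quasi-likelihood F test of edgeR 4.0.16 under R 4.3.3, with filterByExpr and TMM. Means of the 5 groups were fitted to all 15 libraries, with Benjamini-Hochberg adjustment across 18008 genes. Calls needed an adjusted p under 0.05 together with a fold over 1.5 in either direction, the study's own thresholds with EBSeq. The standard error is the log2 fold change divided by the square root of F. On simulated counts for this comparison (17896 genes) the fit recovered 32 of 100 genes changed 2-fold and 77 of 100 changed 4-fold, with 2 false calls. The simulation gave every group the same spread, while in the data MJ 24 h libraries were more variable than ETH 24 h libraries. Alternatives were DESeq2 1.42.0, limma 3.58.1 voom, other scalings, filters, thresholds and sample sets, a replicate block, and leaving out each library.

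Names came from the study's network tables (104 gene IDs) and the readable lines of its annotation table (1022 lines, 539 with an Arabidopsis match), and 0 IDs matched the RefSeq gene table. Members, gene lists (21 lists, 278 genes) and the naming rule were chosen with earlier results of these data known. The rule takes called list members and called genes with a name, pathway genes with values, and the 2 largest rises and falls by ID. Beyond this rule, some uncalled members of other lists are given with values. Examples are CrHB1, CrNAC6, SPCH, AT4G20820, CYP71B10, CH1, HSP70 and NRT1:2. They are shown for their wide differences at 24 h and do not stand for their lists. OPT3 is shown only for its change between the times. Sequences were not used here.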

Additional observations from a re-analysis of the deposited data

Results flagged for a closer look

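Of 43 named genes looked at, 7 had a difference between the hormones that was not the same at 24 h as at 3 h, OPT3 and 6 of those named above. The test was of the change itself (ETH minus MJ at 24 h less ETH minus MJ at 3 h, edgeR quasi-likelihood test). Over all 18008 genes tested, 595 (3.3%) passed it together with the fold threshold. The 43 genes were chosen with earlier results of these data known, OPT3, LOX2 and NRT1:2 among them. Their share that passed therefore cannot be set against that of all genes. MYC3 was not among the 43 genes. Among these 7, LOX2 had the widest positive change, 5.44 log2 units (adjusted p = 0.0208), with a log2 fold change of 0.77 at 24 h and -4.67 at 3 h. OPT3, an oligopeptide transporter, changed by -2.14 (adjusted p = 0.0246), with 0.37 at 24 h and 2.51 at 3 h. LBA1 changed by 0.97 (adjusted p = 0.0272). NRT1:2 changed by -2.80 (adjusted p = 0.0321), with -1.61 at 24 h and 1.19 at 3 h, neither of which was called. Among the genes without a name, CRO_017678 changed by 3.67 (adjusted p = 0.0447), CRO_020365 by -5.52 (adjusted p = 0.0214) and CRO_020790 by -6.24 (adjusted p = 0.00124). LBA1 was named because it was called at 24 h, and these last 3 were picked for their size at 24 h, so that their change is partly a result of that choice. Groups of 3 libraries are too small for a rule on single outlying samples.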

How the results depend on the processing

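The 187 genes kept their sign under every alternative in which they were tested. This was largely set by their selection, since all 187 had no overlap between the groups, and it does not measure robustness. Of 682 values of 43 named genes, 578 kept direction and side of the threshold, 63 lost the call, 37 gained it and 4 turned, all without 1 MJ 24 h library and none in a called gene: without replicate 1, CrEIN2 to -0.014 (CRO_006809) and -0.0039 (CRO_030101) and CrEIN3 to -0.0687, the last running up to 0.1355 with another library left out; and without replicate 3, NMT to -0.1594, running up to 0.8536. The count of calls depended on the test and the libraries. DESeq2 called 803 genes (349 higher, 454 lower), limma voom 1654 (675 and 979), the fit to only the 6 libraries 552 (296 and 256) and the fit without the 3 h groups 630 (315 and 315). An adjusted p under 0.01 left 25 (17 and 8) and glmTreat against a fold of 1.5 left 26 (18 and 8). Scaling by library totals gave 176 higher genes, with the median of all genes moved by 0.13. Leaving out 1 library gave 20 to 198 calls (16 to 71 higher, 4 to 127 lower). Of the called genes, those with the same sign at 3 h were 480 with DESeq2 (246 higher, 234 lower), 963 with limma voom (467 and 496), 146 higher with library totals, and 15 to 135 with 1 library left out (13 to 58 higher, 1 to 77 lower). List members called were 18 with DESeq2, 28 with limma voom and 0 to 5 with 1 library left out.

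Replicate numbers are shared in the labels, but same-numbered libraries of ETH 24 h and MJ 24 h did not deviate together (correlation of deviations 0.08, -0.11 and -0.33), so the numbers were not taken as pairs. Between libraries of unlike number the values ran from -0.53 to 0.51, the highest for ETH 24 h replicate 2 with MJ 24 h replicate 3. Pairing across numbers was not tested. The check covered the 24 h groups only, while the 3 h groups entered the same fit without a block. At 3 h, PTL had 27, 2 and 0 counts in ETH 3 h and 24, 0 and 2 in MJ 3 h, by replicate. LEA4-5 had 10, 4 and 2 counts in ETH 3 h and 6, 14 and 28 in MJ 3 h. Whether same-numbered libraries deviated together at 3 h was not tested. With a replicate block, 118 genes were called in all 15 libraries (74 higher, 44 lower) and 0 in the 6 libraries alone (0 higher, 0 lower; 2713 with an unadjusted p under 0.05 in edgeR). On simulated counts with the same spread in every group, 32 of 100 genes changed 2-fold were recovered, so smaller changes were often not detectable here.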
